A study of Mus musculus with 6 samples.

Results

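The 10 genes described here code for receptors, ligands, the nuclear effector and target genes of the Notch pathway, and they were chosen by symbol from the 22375 rows of a table of gene expression in C2C12 cells. All 10 symbols had a row. The receptors were Notch1, Notch2 and Notch3, the ligands were Jag1, Jag2 and Dll1, the effector was Rbpj, and the targets were Hes1, Hey1 and Heyl. C2C12 is a mouse myoblast line, so all samples come from 1 established line of muscle precursor cells and none from muscle tissue. The 3 libraries of the CON group came from cells that were not stretched, and the 3 libraries of the 4H group from cells under cyclic loading at 15% elongation for 4 h. The labels title the 4H libraries 4H1, 4H3 and 4H4, and they are called 4H replicates 1, 2 and 3 here. The stretched cells grew on elastic plates coated with poly-lysine, and the labels name no other agent in either group. The labels call the libraries separate biosamples but do not say whether they came from separate cultures, so the p-values below measure the spread between these libraries, which may be technical.

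Notch receptors sit in the membrane and bind Jagged and Delta-like ligands on a neighbouring cell. Ligand that is pulled into its own cell drags on the receptor, which opens a site for ADAM proteases and then for γ-secretase. The freed intracellular domain enters the nucleus and joins RBPJ, a DNA-binding protein that holds target genes silent with corepressors when Notch is inactive and turns them on with Mastermind-like coactivators when it is active. The transcription factors of the Hes and Hey families are the best known targets, and in myoblasts Notch signalling is known for keeping precursor cells from differentiating.

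Values are FPKM, fragments scaled by transcript length and by the number of mapped fragments, so levels of different genes can be set side by side per length. A gene was tested when its mean over the 6 libraries was at least 0.5 FPKM. A gene was called at an adjusted p of at most 0.05 by limma on log2(FPKM + 0.5), with Benjamini-Hochberg adjustment over all 11593 genes tested, and all adjusted p-values below come from this fit. Fold changes on this log2 scale run smaller than the ratio of mean FPKM for genes of low level. In 9 of the 10 genes a test could be made. Of these, 6 rose in the 4H group (Notch1, Notch2, Jag2, Dll1, Hes1 and Hey1), where 22.6% of all genes tested rose, and 1 fell (Rbpj), where 24.1% of all genes tested fell. Notch3 and Jag1 were not called. The 7 called genes stand beside a share of 46.7% called in either direction over all genes tested. The groups did not overlap in these 7 genes, with 4H above CON in 6 and below in 1, and over all genes tested 56.7% were without overlap, 27.5% with 4H above and 29.2% with 4H below. None of the 9 also reached an absolute log2 fold change of 1, the stricter threshold of the study's methods, which 3.88% of all genes tested met. At an unadjusted p under 0.05 the count was 7. Hey1 met the stricter threshold when the pseudocount was 0.1 FPKM and when the values were rescaled to TPM. The median log2 fold change was 0.29 over the 9 genes and -0.01 over all genes tested. In bulk RNA, fewer cells that express a gene and less of its RNA per cell cannot be told apart.

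**Figure D1:**
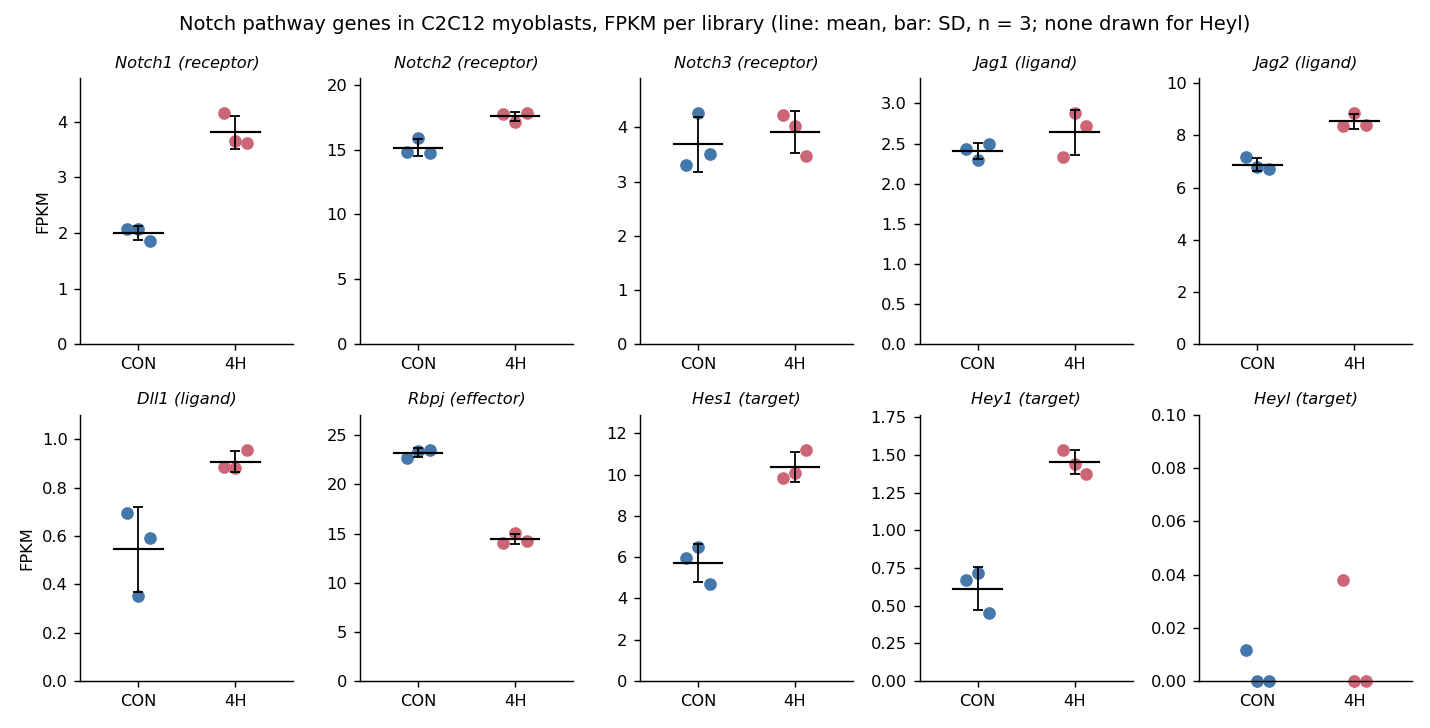
FPKM of each of the 10 genes (vertical axes, from 0) in each CON and 4H library (points, horizontal axis), with the mean as a line and the SD as a bar for the 9 genes tested. The 4H points lie above all CON points in Notch1, Notch2, Jag2, Dll1, Hes1 and Hey1 and below them in Rbpj, while Notch3, Jag1 and Heyl overlap.

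The promoters of Rbpj, Notch1 and Jag2 are printed as examples, 1 called gene for each of 3 motifs that RBPJ or the Hes and Hey proteins are known to bind. The sequences are from RefSeq on GRCm38.p6 and run from 250 bases before to 50 bases after an annotated start, 5′ to 3′ on the strand of the gene. Of the 10 genes, 7 matched a window by symbol, with 9 windows in all. Both strands were searched for TGGGAA (the core of the RBPJ site), CACGCG (a Hes and Hey site) and CACNAG (the N-box of Hes proteins), and the capitals mark every match. The Rbpj window lies at chr5:53590096-53590395 on the plus strand, the Notch1 window at chr2:26503773-26504072 on the minus strand and the Jag2 window at chr12:112929446-112929745 on the minus strand.
Rbpj: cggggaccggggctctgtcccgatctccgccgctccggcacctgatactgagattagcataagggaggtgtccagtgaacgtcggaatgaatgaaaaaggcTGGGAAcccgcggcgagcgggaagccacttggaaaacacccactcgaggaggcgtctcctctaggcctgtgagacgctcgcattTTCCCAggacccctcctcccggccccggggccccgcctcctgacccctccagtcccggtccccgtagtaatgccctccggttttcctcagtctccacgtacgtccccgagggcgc
Notch1: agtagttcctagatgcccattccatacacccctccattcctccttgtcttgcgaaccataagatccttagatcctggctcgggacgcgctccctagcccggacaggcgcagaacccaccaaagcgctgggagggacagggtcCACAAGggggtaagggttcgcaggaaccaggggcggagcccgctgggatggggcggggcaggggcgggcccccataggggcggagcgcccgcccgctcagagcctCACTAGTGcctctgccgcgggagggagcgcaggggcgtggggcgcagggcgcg
Jag2: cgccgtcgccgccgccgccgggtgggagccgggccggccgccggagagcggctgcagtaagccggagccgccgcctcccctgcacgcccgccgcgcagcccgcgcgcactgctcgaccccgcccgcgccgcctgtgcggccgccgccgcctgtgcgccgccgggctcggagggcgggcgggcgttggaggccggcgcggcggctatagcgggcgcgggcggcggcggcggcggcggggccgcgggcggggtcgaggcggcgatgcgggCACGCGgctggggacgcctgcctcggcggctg

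TGGGAA was found in windows of Rbpj and of none of the other 6 genes, and 25.6% of the 32851 windows in the RefSeq table hold it. In the printed Rbpj window it starts 149 bases before the annotated start on the forward strand and 65 bases before it on the reverse strand. A second Rbpj window, which shares 160 bases with the first, holds the reverse match again. CACNAG was found 3 times in the Notch1 window, where the matches at 3 and at 1 base before the start overlap as CACTAGTG, and 42.5% of all windows hold this motif. The printed starts of Rbpj, Notch1 and Jag2 all lie inside the gene as GENCODE M21 gives it, so for these 3 genes the 250 bases before the outermost start were not searched as such. CACGCG was found once in the Jag2 window, 18 bases after the start, and 9.27% of all windows hold it. Windows that are not printed, of Notch2, Jag1 and Dll1, also hold CACGCG, and those of Notch2, Notch3 and Dll1 hold CACNAG. These matches describe letters only, and binding was not measured.

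Of the receptors, Notch1 changed most. Its level was 2.06, 2.07 and 1.86 FPKM in the CON libraries and 4.15, 3.65 and 3.62 FPKM in the 4H libraries. All 4H libraries were higher than all CON libraries. The mean rose 1.90-fold, from 2.00 ± 0.12 to 3.80 ± 0.30 FPKM (SD, n = 3), and the log2 fold change was 0.78 with SE 0.09 and a 95% confidence interval of 0.57 to 1.00 (adjusted p = 0.000247). A change at least as large in either direction was seen in 6.70% of all genes tested. Notch1 (ENSMUSG00000026923) lies at chr2:26457903-26516663 on the minus strand of GRCm38 in GENCODE M21. Of the 75-base stretches of its longest transcript, 13.2% also occur in the antisense genes 0610009E02Rik and Gm13568, neither of which has a row by symbol. The libraries keep strand, but whether the counting used it is not stated in the sources used here, so a part of this level may belong to the opposite strand.

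Notch2 was the receptor with the highest level. It measured 14.8, 15.9 and 14.7 FPKM in CON and 17.7, 17.1 and 17.8 FPKM in 4H, with no overlap. The difference was small next to that of Notch1. The mean rose 1.16-fold, from 15.1 ± 0.66 to 17.6 ± 0.37 FPKM (SD, n = 3), with a log2 fold change of 0.21, SE 0.05 and an adjusted p of 0.00897, and 46.5% of all genes tested changed as much. When a trend on transcript length and GC content was removed from each library, the log2 fold change was 0.12 and the call was lost (adjusted p = 0.0711). Notch2 lies at chr3:98013527-98150361 on the plus strand. Gm42820 overlaps its exons on the same strand and shares 3.15% of its 75-base stretches, so strand cannot separate the 2 there.

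Notch3 is the receptor best known from the smooth muscle of vessels and is also present in muscle precursor cells. Its level was 3.30, 4.26 and 3.51 FPKM in CON and 4.22, 4.03 and 3.47 FPKM in 4H, and the ranges overlapped over most of their length. The means were 3.69 ± 0.51 and 3.91 ± 0.39 FPKM (SD, n = 3). The log2 fold change was 0.08 with a 95% confidence interval of -0.18 to 0.33 (adjusted p = 0.613), and it was -0.01 after the trend on length and GC content was removed. When any 1 library was left out, the log2 fold change lay between 0.0078 and 0.17. A 2-fold change in either direction would lie outside the confidence interval. Notch3 lies at chr17:32120820-32166852 on the minus strand, with the antisense gene Gm17276 sharing 4.31% of its 75-base stretches.

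Among the ligands, Jag2 had the highest level. It measured 7.17, 6.77 and 6.70 FPKM in CON and 8.37, 8.85 and 8.38 FPKM in 4H. The 3 stretched libraries lay above the unstretched ones, within a narrow range in each group. The mean rose 1.24-fold, from 6.88 ± 0.25 to 8.54 ± 0.28 FPKM (SD, n = 3), and the log2 fold change was 0.29 with SE 0.06 and a 95% confidence interval of 0.15 to 0.43 (adjusted p = 0.00465). A change of this size or more was found in 32.7% of all genes tested. Jag2 lies at chr12:112907819-112929776 on the minus strand.

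Jag1, the other Jagged ligand, was not called. Its level was 2.44, 2.30 and 2.49 FPKM in CON and 2.33, 2.88 and 2.72 FPKM in 4H. The lowest 4H library lay within the CON range and the other 2 above it. The log2 fold change was 0.11 with a 95% confidence interval of -0.12 to 0.34 (adjusted p = 0.414), and it lay between 0.05 and 0.18 when any 1 library was left out. Jag1 lies at chr2:137081456-137116644 on the minus strand.

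Dll1, the Delta-like ligand through which myogenic cells are known to signal to one another, was close to the filter on low values. It measured 0.693, 0.352 and 0.589 FPKM in CON and 0.884, 0.882 and 0.956 FPKM in 4H. The groups did not overlap, and CON replicate 2 was the lowest of all 6 libraries. The mean was 0.545 ± 0.17 FPKM in CON and 0.907 ± 0.04 FPKM in 4H (SD, n = 3), with a log2 fold change of 0.44, SE 0.16 and an adjusted p of 0.0493. This call was the least stable of the 7, since it held in 6 of 16 alternative fits, with adjusted p from 0.0282 to 0.162. Without CON replicate 2 the log2 fold change was 0.30 (adjusted p = 0.134). The call was also lost without CON replicate 3 (adjusted p = 0.0827) and without 4H replicate 1, 2 or 3 (adjusted p = 0.0935, 0.0945 and 0.115). Dll1 lies at chr17:15367354-15376872 on the minus strand, and 13.7% of its 75-base stretches also occur in the antisense gene A930024N18Rik.

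**Figure D2:**
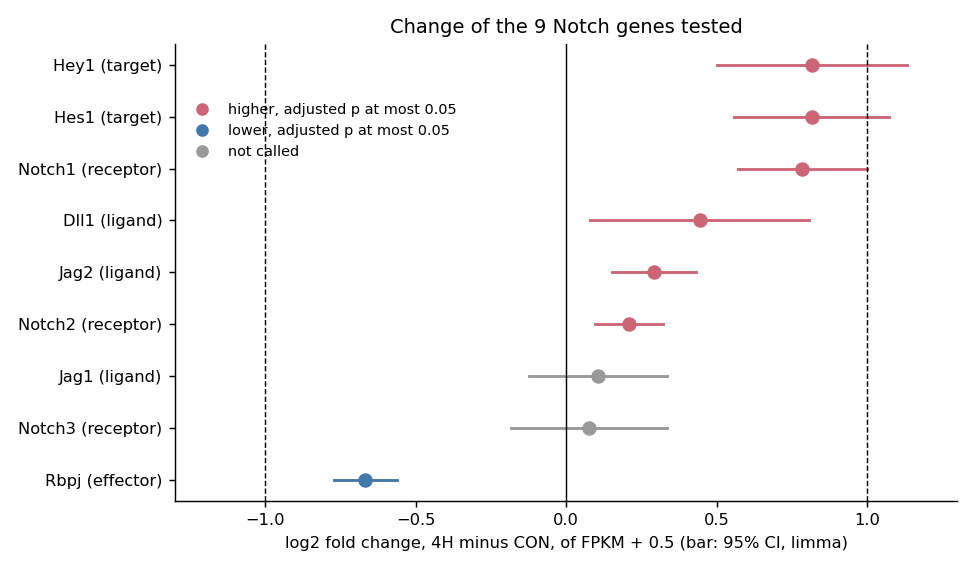
Log2 fold change of FPKM + 0.5, 4H minus CON (horizontal axis), for the 9 genes tested (vertical axis), with the 95% confidence interval of limma as a bar and dashed lines at a log2 fold change of 1 and -1. Hey1, Hes1 and Notch1 have the highest values, at 0.82, 0.82 and 0.78, and Rbpj, at -0.67, is the only gene below 0.

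Rbpj, the effector that all receptors share, moved the other way. Its level was 22.7, 23.5 and 23.5 FPKM in CON and 14.1, 15.0 and 14.2 FPKM in 4H. The stretched libraries were all lower, by a gap many times the spread within either group. The mean fell from 23.2 ± 0.45 to 14.4 ± 0.51 FPKM (SD, n = 3), a change of -37.8%. The log2 fold change was -0.67 with SE 0.05 and a 95% confidence interval of -0.77 to -0.56 (adjusted p = 1.05e-05), and 9.20% of all genes tested changed as much. The call held in 17 of 17 alternative fits. Rbpj lies at chr5:53466152-53657362 on the plus strand. Of its 75-base stretches, 21.1% also occur in other genes, among them the pseudogene Rbpj-ps3, and none of these has a row by symbol. Fragments may have been shared with these copies, so the absolute level is uncertain.

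Hes1 codes for a repressor of the basic helix-loop-helix class that is a direct Notch target in many tissues. It measured 5.98, 6.47 and 4.71 FPKM in CON and 9.85, 10.1 and 11.2 FPKM in 4H, and the lowest 4H library was well above the highest CON library. The mean rose 1.81-fold, from 5.72 ± 0.91 to 10.4 ± 0.73 FPKM (SD, n = 3). The log2 fold change was 0.82 with SE 0.11 and a 95% confidence interval of 0.56 to 1.07 (adjusted p = 0.000533), and it stayed between 0.69 and 0.90 when any 1 library was left out. Hes1 lies at chr16:30064384-30067796 on the plus strand.

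Hey1 codes for a related repressor. Its level was 0.671, 0.716 and 0.450 FPKM in CON and 1.53, 1.44 and 1.38 FPKM in 4H. Each stretched library lay far above the CON range. The mean rose 2.37-fold, from 0.612 ± 0.14 to 1.45 ± 0.08 FPKM (SD, n = 3), while the log2 fold change of FPKM + 0.5 was 0.82 with SE 0.14 and a 95% confidence interval of 0.50 to 1.13 (adjusted p = 0.00158). With a pseudocount of 0.1 FPKM the log2 fold change was 1.14 and after rescaling to TPM it was 1.07. Hey1 lies at chr3:8663359-8667256 on the minus strand.

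Heyl, the third target, was scarcely present in the table. It was listed at 0.0115, 0 and 0 FPKM in CON and at 0.0381, 0 and 0 FPKM in 4H. The groups overlapped and no fold change is given. It was below the filter, and in the fit with no filter it was not called (adjusted p = 0.694). Heyl lies at chr4:123233556-123249875 on the plus strand.

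**Figure D3:**
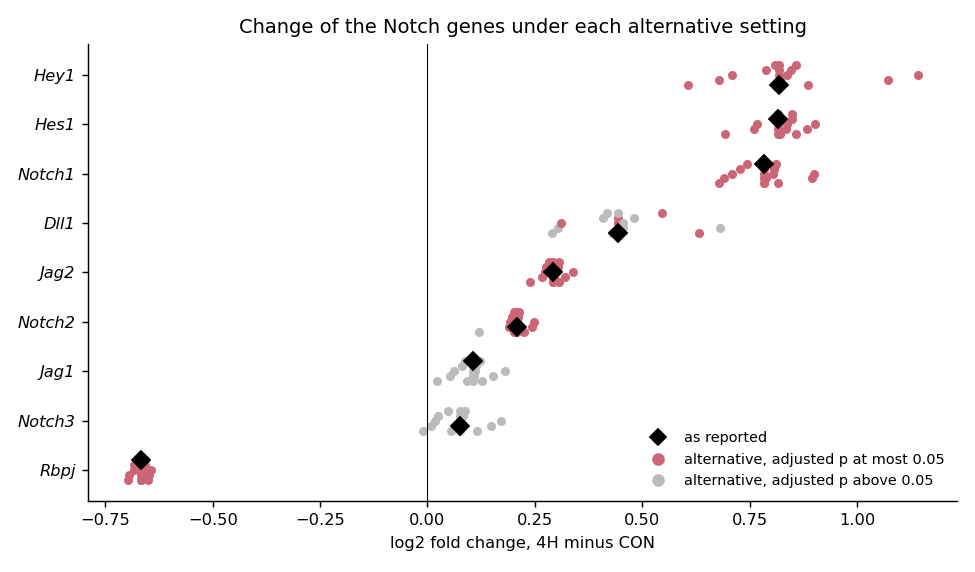
Log2 fold change, 4H minus CON (horizontal axis), of each of the 9 genes tested (vertical axis) as reported (diamonds) and under each alternative setting (points, coloured by whether the adjusted p was at most 0.05). Rbpj, Notch1, Hes1, Hey1 and Jag2 kept their call in 17 of 17 alternative fits, Notch2 in 16 of 17 and Dll1 in 6 of 16.

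The order of the levels within a group was read from FPKM. In CON it ran Rbpj, Notch2, Jag2, Hes1, Notch3, Jag1, Notch1, Hey1, Dll1 and Heyl, from highest to lowest, and only Hey1 and Dll1 had ranges over the libraries that overlapped with their neighbour. In 4H it ran Notch2, Rbpj, Hes1, Jag2, Notch3, Notch1, Jag1, Hey1, Dll1 and Heyl, and only Notch3 and Notch1 overlapped. Rbpj was thus above Notch2 in every CON library and below it in every 4H library, and Hes1 was below Jag2 in every CON library and above it in every 4H library. The absolute level of Rbpj is uncertain because of its shared sequence, and so is its place in either order.

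Members of 1 role were added up within each library. The summed level of the receptors was 20.2, 22.2 and 20.1 FPKM in CON and 26.1, 24.8 and 24.9 FPKM in 4H. That of the ligands was 10.3, 9.43 and 9.78 FPKM in CON and 11.6, 12.6 and 12.1 FPKM in 4H. That of the targets was 6.66, 7.19 and 5.16 FPKM in CON and 11.4, 11.5 and 12.6 FPKM in 4H. In each role the groups did not overlap, and Notch2, Jag2 and Hes1 held the larger part of their role's sum in every library.

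To ask whether genes of 1 role changed unequally, the ratio of each pair was taken within a library. Of 9 pairs, 7 had a value, since Heyl was listed at 0 in most libraries. The ratio of Notch1 to Notch2 was 0.139, 0.130 and 0.126 in CON and 0.234, 0.213 and 0.203 in 4H, a difference of 0.71 on the log2 scale. The ratio of Notch1 to Notch3 was 0.626, 0.486 and 0.529 in CON and 0.983, 0.906 and 1.04 in 4H, a difference of 0.84 on the log2 scale, so that the level of Notch1 came near that of Notch3. In the receptors, therefore, both ratios with Notch1 separated the groups. The ratio of Notch2 to Notch3 overlapped, from 3.73 to 4.49 in CON and from 4.20 to 5.13 in 4H (exact permutation p = 0.4).

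The ratios of the ligands and targets differed less or rested on genes of low level. Jag1 to Jag2 was 0.340, 0.340 and 0.372 in CON and 0.278, 0.325 and 0.324 in 4H, a difference of -0.18 on the log2 scale. Hes1 to Hey1 was 8.91, 9.04 and 10.5 in CON and 6.42, 6.98 and 8.14 in 4H, a difference of -0.40 on the log2 scale that all but vanished when 0.5 FPKM was added to both genes. Both ratios separated the groups, but the second depends on how the low level of Hey1 is treated. The ratios with Dll1 also separated the groups, with a difference of -0.66 for Jag1 and -0.48 for Jag2 on the log2 scale, and without CON replicate 2 these were -0.41 and -0.20. For all 6 pairs without overlap the two-sided exact permutation p was 0.1, the smallest that 3 libraries against 3 allow, and 0.117 after Benjamini-Hochberg adjustment over the 7 pairs with a value, so none could pass a threshold of 0.05.

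**Figure D4:**
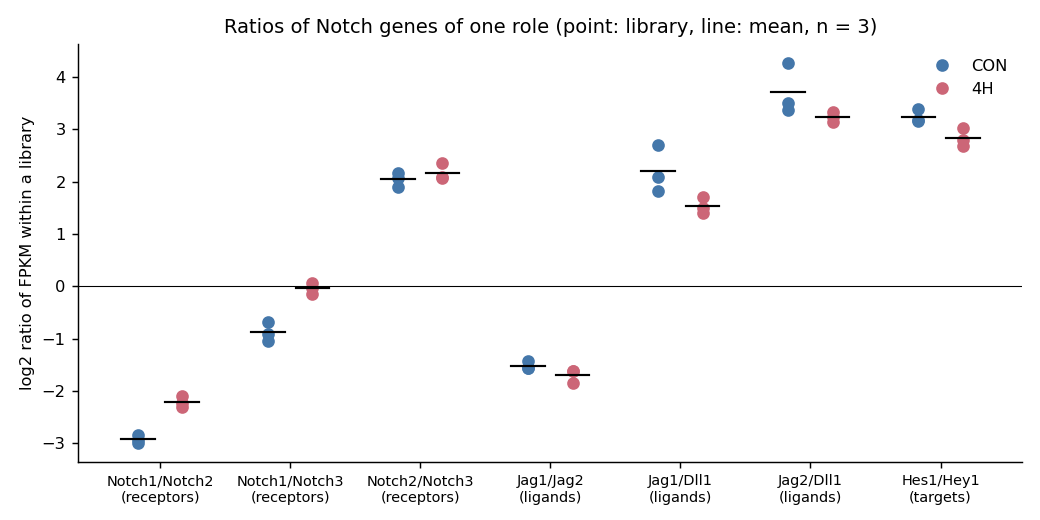
Log2 ratio of FPKM of 2 genes of 1 role within a library (vertical axis) for the 7 pairs with a value (horizontal axis), with each library as a point and the group mean as a line. Notch1 relative to Notch2 and to Notch3 had no 4H library within or below the CON range, and Notch2 to Notch3 is the only pair whose groups overlap.

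The rest of the pathway was read from 8 lists with 77 genes, of which 62 could be tested. Of these, 11 rose, 20 fell and 31 were not called, and over all genes tested 22.6% rose, 24.1% fell and 46.7% were called in either direction. The median log2 fold change of the lists was -0.04. Genes of both directions were found in each list with 7 or more genes tested, and the only gene past both thresholds was Mib2.

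Of 6 other receptors and ligands only Dlk2, a Delta-like relative, passed the filter. It was at 3.28, 2.81 and 2.06 FPKM in CON and 2.39, 2.09 and 2.05 FPKM in 4H, so that in CON its mean was above those of Notch1 and Jag1. It was not called (log2 fold change -0.25, adjusted p = 0.20). Without CON replicate 3 it was called lower (log2 fold change -0.41, adjusted p = 0.0329), and without CON replicate 1 its log2 fold change was -0.125 (adjusted p = 0.524). Notch4, a receptor known from endothelium, was below the filter, at 0.065 to 0.106 FPKM in CON and 0.193 to 0.364 FPKM in 4H without overlap, and in the alternative fit with no filter on low values it was called higher (log2 fold change 0.38, adjusted p = 0.0164). Of the 16576 genes tested in that fit, 2967 were called higher and 2598 lower. Dlk1 was listed at 0 in all libraries. In a list of 7 genes, made up of the other Hes and Hey genes and Nrarp, a feedback inhibitor, only Hes6 could be tested. Its log2 fold change was 0.29 (adjusted p = 0.0539). In the fit with no filter no gene of this list was called, Nrarp among them (adjusted p = 0.137). Hes6 was called higher in 4 of 17 alternative fits, with TPM (adjusted p = 0.0385), with quantile normalization (0.0498), without CON replicate 3 (0.0225) and without 4H replicate 3 (0.0453). Without CON replicate 1 its log2 fold change was 0.19 (adjusted p = 0.153).

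All 7 coactivators that work with RBPJ were tested, and 1 rose and 2 fell, beside 22.6% and 24.1% of all genes tested. Kat2b, a histone acetyltransferase, rose from 7.10 ± 0.53 to 9.79 ± 0.39 FPKM (SD, n = 3), by 0.44 on the log2 scale (adjusted p = 0.00119). Maml1, a Mastermind-like coactivator, fell by 0.24 on the log2 scale (adjusted p = 0.0375), a call that held in 9 of 17 alternative fits. Without CON replicate 1 its log2 fold change was -0.16 (adjusted p = 0.0944), and the call was also lost without CON replicate 2 (adjusted p = 0.0526) or 4H replicate 1, 2 or 3 (adjusted p = 0.0981, 0.0706 and 0.068). Snw1, a splicing factor that binds the receptor's intracellular domain, fell by 0.19 (adjusted p = 0.00713). Of 14 corepressors tested, 2 rose and 3 fell, beside the same shares of all genes tested. Hdac1, a histone deacetylase, rose by 0.19 on the log2 scale from 26.5 to 30.4 FPKM (adjusted p = 0.0111). Ctbp1, a general corepressor, fell by 0.34 from 89.5 to 70.7 FPKM (adjusted p = 0.000109). Kdm5a, a histone demethylase, fell by 0.22 (adjusted p = 0.0169), and its call was lost without 4H replicate 2 (adjusted p = 0.0552). The other fall, in Ncor1, a corepressor that recruits deacetylases, was by 0.14 (adjusted p = 0.0381) and held in 8 of 17 alternative fits. It was lost without CON replicate 1, 2 or 3 (adjusted p = 0.107, 0.0797 and 0.0669) or 4H replicate 2 or 3 (adjusted p = 0.117 and 0.112), and without 4H replicate 2 the number of corepressors that fell was 1.

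Among 9 genes of receptor proteolysis, 1 rose and 2 fell, beside 22.6% and 24.1% of all genes tested. Furin, the convertase that makes the first cut of the receptor on its way to the surface, was at 27.3, 28.5 and 28.3 FPKM in CON and 42.4, 41.4 and 42.4 FPKM in 4H. Each 4H library was well above the CON range, and the log2 fold change was 0.58 (adjusted p = 6.17e-06). Adam17, a protease that can cut at the membrane, fell by 0.21 on the log2 scale from 26.3 to 22.6 FPKM (adjusted p = 0.00175), and Aph1a, a subunit of γ-secretase, by 0.17 (adjusted p = 0.0119).

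Of 10 genes of receptor glycosylation tested, 3 rose and 6 fell, beside 22.6% and 24.1% of all genes tested. Lfng, a Fringe enzyme that extends the O-fucose of the receptor and alters which ligands activate it, was at 2.66, 3.43 and 3.88 FPKM in CON and 4.82, 5.27 and 4.52 FPKM in 4H, with no overlap and a difference of 0.50 on the log2 scale (adjusted p = 0.0124). Gxylt1, a xylosyltransferase that extends O-glucose, rose by 0.31 (adjusted p = 0.00388). Poglut3, which adds O-glucose, was at 13.7, 14.0 and 12.7 FPKM in CON and 8.77, 8.21 and 8.67 FPKM in 4H, and fell by 0.63 on the log2 scale (adjusted p = 7.36e-05). Gxylt2, a close relative of Gxylt1, fell by 0.62 from 1.55 to 0.827 FPKM (adjusted p = 0.00283), so the pair of xylosyltransferases moved in opposite directions.

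Of the 9 genes for ubiquitination and uptake of ligands, 2 rose and 3 fell, beside 22.6% and 24.1% of all genes tested. Mib2, a ubiquitin ligase that acts on Notch ligands, was at 18.4, 17.2 and 17.7 FPKM in CON and 7.93, 8.14 and 8.35 FPKM in 4H. The groups stood far apart, its ratio of mean FPKM was 0.459, and the log2 fold change was -1.08 (adjusted p = 1.6e-06). Neurl1a, another ligand ubiquitin ligase, rose by 0.53 from 2.01 to 3.12 FPKM (adjusted p = 0.0014), and Epn2, an endocytic adaptor, by 0.41 (adjusted p = 0.000126). Dnm2, the dynamin that pinches off endocytic vesicles, fell by 0.41 from 46.6 to 34.9 FPKM (adjusted p = 0.000114).

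Of 11 genes of receptor ubiquitination and turnover, 2 rose and 4 fell, beside 22.6% and 24.1% of all genes tested. The ubiquitin ligases Cbl and Itch rose by 0.31 (adjusted p = 0.0019) and 0.21 (adjusted p = 0.00678) on the log2 scale. Dtx4 and Dtx3l, of the Deltex family, fell by 0.44 (adjusted p = 0.0147) and 0.38 (adjusted p = 0.0089), and Dtx4 lost its call without CON replicate 3 (adjusted p = 0.0519). Dtx1 was listed at 0 in every CON library and at 0.127 to 0.273 FPKM in 4H, below the filter, and was called higher in the fit with no filter (adjusted p = 0.00377).

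**Figure D5:**
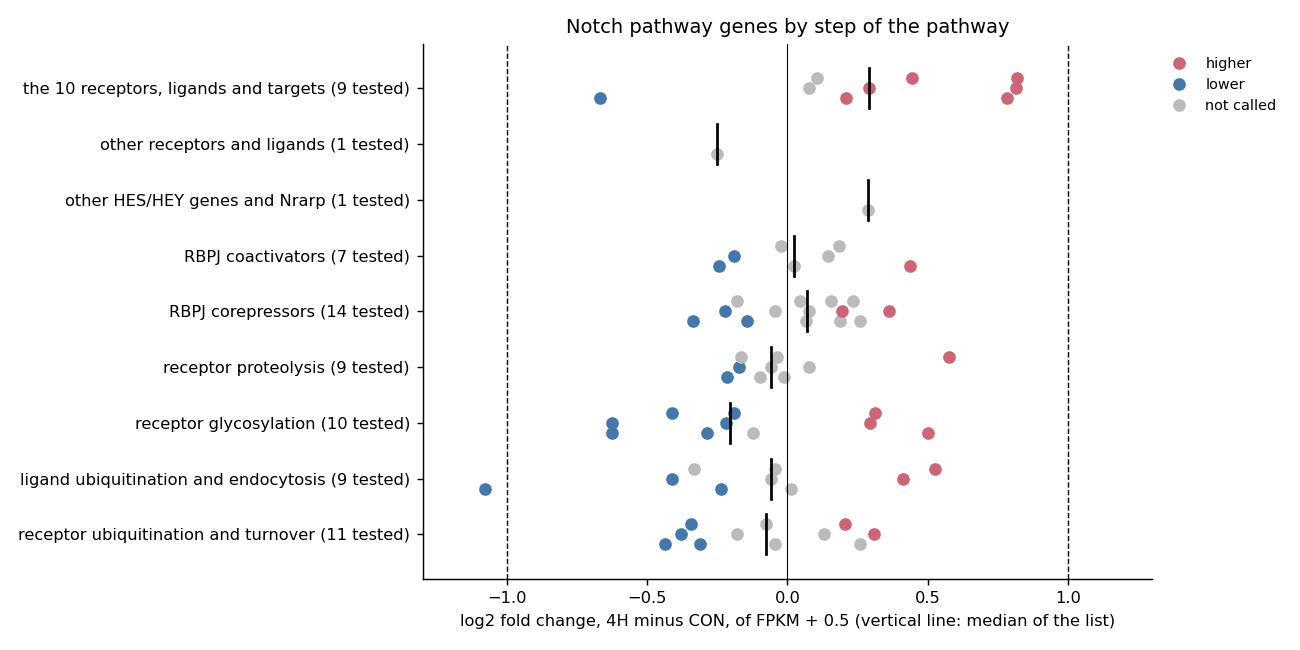
Log2 fold change of FPKM + 0.5, 4H minus CON (horizontal axis), of each tested gene of the 10 receptors, ligands and targets and of the 8 other pathway lists (rows), coloured by call, with the median of each list as a vertical line and dashed lines at 1 and -1. The 10 genes have a median of 0.29, the medians of the lists with 7 or more genes tested lie between -0.20 and 0.07, and Mib2, at -1.08, is the only point past a dashed line.

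The identity of the cells was checked with marker genes. Myod1, Myf5, Des and Cdh15, which mark myoblasts, were all present, and the summed level of the 6 myoblast markers was 119.5 to 122.6 FPKM in CON and 151.2 to 156.4 FPKM in 4H. Des held most of this sum, at a mean of 71.6 FPKM in CON and 88.8 FPKM in 4H. Of the 5 tested, 4 rose and 1 fell, beside 22.6% and 24.1% of all genes tested. Pax7 was below the filter, at a mean of 0.452 FPKM in CON and 0.429 FPKM in 4H. Myod1, the determination factor that Notch targets are known to oppose, rose from 5.13 to 18.2 FPKM, a log2 fold change of 1.74, and Myf5 fell from 15.8 to 9.82 FPKM. Of 9 markers of differentiated muscle, whose summed level was 2.03 to 2.11 FPKM in CON and 1.84 to 2.52 FPKM in 4H with overlap, 2 were tested. Mymk, which drives myoblast fusion, rose by 0.57 on the log2 scale, and Mylpf, a myosin light chain, had a log2 fold change of -0.45 and was not called. Myog, the differentiation factor, was below the filter, at 0.281, 0.136 and 0.235 FPKM in CON and 0.0794, 0 and 0 FPKM in 4H without overlap. Tnnt3, a troponin of fast muscle, was below the filter too and separated the other way, at 0.0911, 0 and 0.143 FPKM in CON and 0.613, 0.297 and 0.293 FPKM in 4H. In the fit with no filter Myog was called lower (adjusted p = 0.0134) and Tnnt3 higher (adjusted p = 0.0236). Mymx, Myh8 and Actn2 were listed at 0 throughout.

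Markers of other cell types were read in the same way. Fibroblast markers summed to 130.5 to 136.0 FPKM in CON and 104.1 to 107.7 FPKM in 4H, with Tcf21 at 0 in all libraries. Most of that sum was the collagen gene Col1a2, which fell from 123.1 to 92.6 FPKM, while Pdgfra, the only other of the 4 tested that was called, rose from 3.15 to 5.08 FPKM. Macrophage markers summed to 6.73 to 8.51 FPKM in CON and 16.5 to 18.6 FPKM in 4H, with the defining markers Ptprc and Adgre1 at 0 throughout. Cd68, a lysosomal protein, rose from 7.57 to 16.4 FPKM. Csf1r was at 0, 0 and 0.0272 FPKM in CON and 1.48, 0.966 and 0.792 FPKM in 4H and passed the filter through the 4H libraries alone. No endothelial or epithelial marker passed the filter. Their sums were 0.147 to 0.287 and 0.0401 to 0.117 FPKM in CON and 0.467 to 0.619 and 0.319 to 0.553 FPKM in 4H, with Erg and Epcam at 0. Kdr, Tek, Vwf and Krt8 had no overlap, with 4H above CON and a highest value of 0.358 FPKM, and Kdr, Vwf and Krt8 were called higher in the fit with no filter (adjusted p = 0.0144, 0.0294 and 0.00184), while Pecam1, Cdh5, Cdh1 and Krt18 overlapped between the groups. More genes were above 0 FPKM in every 4H library (14899 to 14972) than in every CON library (14125 to 14186). Apart from that of differentiated muscle, these sums differed between the groups without overlap, as did the levels of the 7 called Notch genes, and their part in those changes was not tested.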

How the data were processed

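RNA-seq of C2C12 cells was analysed from 3 CON and 3 4H libraries, grouped by the labels. The libraries were strand-specific, made from poly(A) RNA and sequenced from both ends on an Illumina instrument. The authors deposited 1 table of FPKM, 1 column per library. The labels name mm10, while for aligner, counter and annotation the entry is "not given in the sources used here". The study's methods used DESeq2 on counts, and the values here are FPKM, so limma 3.58.1 in R 4.3.3 (eBayes with a trend on mean expression, two-sided) was fitted to log2(FPKM + 0.5) for the 11593 genes whose mean over the libraries reached 0.5 FPKM, without a replicate block, and Benjamini-Hochberg adjusted over them. Coordinates, length, GC content and shared 75-base stretches (of the longest transcript of a gene) came from GENCODE M21 (GRCm38). It holds 22017 of the 22128 Ensembl identifiers, so the authors' annotation may differ from it. No gene found to share such stretches has a row by symbol.

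Counting error cannot be had from FPKM, and precision rests on the spread of 3 libraries. Relative depth read from low values differed by at most 1.58%. FPKM summed to 395790 to 397260 in CON and 385146 to 387516 in 4H, and log2 values correlated at 0.992 to 0.993 within and 0.967 to 0.970 between groups (Pearson, across genes). Differences of role ratios were tested by exact permutation over libraries.

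The 10 genes and all lists were chosen with earlier results of these data known. All 10 are named, with the 2 largest rises and 2 largest falls among called genes of each other pathway list, every gene past both thresholds, and markers of cell types. One gene that this rule names is not reported here. Notch4, Dlk1, Nrarp, Dlk2, Hes6, Ncor1 and Dtx1 are exceptions to this rule, chosen once their values were known. The alternatives were pseudocounts of 0.1 and 1 FPKM, no filter and a filter at 1 FPKM, TPM, median-of-ratios and quantile scaling, limma without the trend and with array weights, a replicate block, the ratio of mean FPKM and each library left out in turn. Removal of a trend on length and GC content, and role ratios with a library left out, were alternatives chosen after seeing the data. Figures were drawn with matplotlib 3.10.9 in Python 3.11.15.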

Additional observations from a re-analysis of the deposited data

How the results depend on the processing

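Of 168 alternative values of the counts over the 10 genes, over all other pathway genes and over all genes, and of the role ratios, 165 kept their direction and, for counts, stayed within 1.5 times the reported count. The number of the 10 genes past both thresholds was 0 as reported and 1 (Hey1) with a pseudocount of 0.1 FPKM and 1 with TPM, and the number of all genes past both thresholds was 450 as reported and 703 with TPM, where 12457 genes passed the filter and the cause was not tested. The number called higher ranged from 4 to 6 and the number called lower was 1 under every alternative run. Notch3, never called, had a log2 fold change of -0.0105 after the trend on length and GC content was removed. In other pathway genes, 11 to 13 rose and 17 to 21 fell. Of 272 alternative counts of single lists, 17 differed from the reported count by over 1.5 times. They lay in the coactivators (falls 1 in place of 2 in 8 alternatives, rises 2 without the trend of limma), the corepressors, receptor proteolysis (rises 2 without CON replicate 1), the other Hes and Hey genes, and the other receptors and ligands. By biosample number, the correlations of same-numbered libraries about their group means were 0.025, -0.093 and -0.126. By title, 4H3 (4H replicate 2) shares its number with CON replicate 3, and that correlation was 0.176, the highest of all pairs. Whether the libraries were paired cannot be told from these values. With a replicate block by biosample number, 5 of the 10 genes were higher and 1 lower, the change being the loss of Dll1 (adjusted p = 0.0705). Dll1 was dropped by the filter at 1 FPKM. With 3 libraries a group an exact test of a single value cannot go below 0.1, and in the fit with no filter Notch4 and Dtx1, both under 0.5 FPKM, were called higher and Heyl was not called. In that fit 2967 of 16576 genes tested were called higher and 2598 lower, where the reported fit had 2617 higher and 2792 lower.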
